A study of Mus musculus with 5 samples.

Results

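The 6 classical cadherin genes Cdh1, Cdh2, Cdh3, Cdh5, Cdh6 and Cdh11 were followed in single-cell transcriptomes of differentiating mouse epiblast stem cells (EpiSCs, pluripotent cells derived from the post-implantation epiblast). They were taken by gene symbol from the 32285 genes counted, and all 6 were found. All cells had been differentiated for 3 days in N2B27 medium with 1 µM CHIR99201, a Wnt pathway agonist, and 8 ng/ml BMP. The 5 conditions differed in FGF signaling. Cells received 0, 0.75, 3 or 12 ng/ml FGF2, or 30 nM of the FGF receptor inhibitor AZD4547 (FGFRi). No FGF2 dose is given for the FGFRi cells, so that the effect of the inhibitor and that of a different FGF2 supply cannot be told apart. The cell line is labelled only as EpiSC, with no genetic change given, and 1 library was sequenced per condition.

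Classical cadherins are transmembrane proteins that hold neighboring cells together in adherens junctions. They bind cadherins of the next cell in the presence of calcium, and their cytoplasmic tails bind p120-catenin and β-catenin, which links through α-catenin to actin. During gastrulation, epithelial epiblast cells that pass through the primitive streak lower E-cadherin and take up N-cadherin as they become mesoderm. Cdh1 encodes E-cadherin, the main cadherin of epiblast and other epithelia, and Cdh2 encodes N-cadherin, which is found in mesoderm and neural tissue. Cdh3 encodes P-cadherin of surface ectoderm and trophoblast, Cdh5 encodes VE-cadherin of endothelium, Cdh6 encodes K-cadherin of kidney and neural crest, and Cdh11 encodes OB-cadherin of mesenchyme.

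The genes were identified as follows, with positions from GENCODE vM21 on GRCm38. Cdh1 (ENSMUSG00000000303) lies at chr8:106603351-106670246 on the plus strand and has 16 exons and 884 residues in its longest coding transcript. Cdh3 (ENSMUSG00000061048) lies upstream of it on the same strand, at chr8:106510891-106557297, and ends 46053 bases before Cdh1 starts. Cdh5 (ENSMUSG00000031871, chr8:104101625-104144511, plus strand) and Cdh11 (ENSMUSG00000031673, chr8:102632095-102785642, minus strand) are on the same chromosome. Cdh2 (ENSMUSG00000024304) lies at chr18:16588877-16809246 on the minus strand and encodes 906 residues. Cdh6 (ENSMUSG00000039385) lies at chr15:13028701-13173675 on the minus strand. Cdh11 overlaps 4 annotated genes on its own strand, whose reads may not be told apart from its own, and Cdh2 and Cdh5 each overlap 1 gene on the opposite strand.

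Cell barcodes with at least 2500 detected genes and at most 10% mitochondrial UMIs (unique molecular identifiers, each standing for 1 captured transcript) were retained, which left between 1696 and 2725 cells per library and 10653 in all. Their UMIs summed to between 47824660 and 81538748 per library, with medians of 24408 to 29661.5 per cell. Any pair of libraries shared at most 2 cell barcodes. A level is given in CPM, the number of UMIs of a gene per 1000000 UMIs of all retained cells in the library. Undifferentiated EpiSCs were not among the libraries. Of 8 epiblast markers, 4 reached 10 CPM at 0 or 12 ng/ml, and Pou5f1 (3.75 and 11.3 CPM) and Tdgf1 (0.546 and 16.6 CPM) differed by a factor of 2 or more between these libraries. Nanog was between 0.460 and 2.03 CPM in the 5 libraries, Sox2 between 15.1 and 34.7 CPM and Dnmt3b between 31.1 and 63.4 CPM. Because the libraries count 3' transcript ends, levels are not scaled for gene length. Levels of different genes are therefore not ranked, and where genes stand side by side only differences between libraries or cells are read. Since no condition was replicated, no test between conditions was possible. All intervals are exact 95% intervals (Poisson for levels, conditional binomial for ratios, Clopper-Pearson for shares). They cover counting error only. The limit given beside a count of 0 cells is 3 cells of the total, and it refers to cells with a UMI at the stated depth. The spread between cultures is unknown.

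Cdh1 was highest without FGF2 and was lower in every library of the dose series that followed. Its level was 93.6 CPM without FGF2 (interval 91.1 to 96.2), 74.6 CPM at 0.75 ng/ml, 45.3 CPM with 3 ng/ml and 39.7 CPM at 12 ng/ml (38.2 to 41.2). In FGFRi-treated cells it was 85.8 CPM (83.2 to 88.4). No intervals of neighbors in the order of the 5 libraries overlapped. Cdh2 had the opposite order along the doses. It was at 57.2 CPM without FGF2 (55.3 to 59.2), 71.7 CPM at 0.75 ng/ml, 113 CPM with 3 ng/ml and 122 CPM at 12 ng/ml (120 to 125), and it was at 86.3 CPM with the FGFRi, between the values at 0.75 and 3 ng/ml. Cdh3 was highest in the FGFRi library, at 27.6 CPM, and was at 19.0, 11.6, 6.42 and 5.24 CPM along the doses. The intervals of neighbors in these orders did not overlap for Cdh2 and Cdh3 either. How many of all genes had intervals apart in this way was not counted, so it cannot be called particular to the cadherins.

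The other 3 members were rare. Cdh5 had 1 UMI in the FGFRi library and 6, 12, 17 and 17 UMIs along the doses, and the intervals of its neighboring libraries all overlapped. From the FGFRi to 12 ng/ml, its ratio was 11.5 with a wide interval that did not include 1 (1.80 to 480). Cdh6 had 23 UMIs with the FGFRi (0.481 CPM) and 49, 126, 159 and 125 UMIs at 0, 0.75, 3 and 12 ng/ml (0.862, 1.55, 2.46 and 1.77 CPM). For Cdh6, of the neighbors in the order of levels, only 0 and 0.75 ng/ml had intervals that did not overlap. The intervals of its ratios from 0.75 to 3 ng/ml (1.25 to 2.03) and from 3 to 12 ng/ml (0.563 to 0.913) nevertheless did not include 1. Cdh11 had 193 UMIs with the FGFRi (4.04 CPM), 120 without FGF2 (2.11 CPM), 167 at 0.75 ng/ml (2.05 CPM), 180 with 3 ng/ml (2.79 CPM) and 251 at 12 ng/ml (3.55 CPM). Its highest levels in CPM were thus at both ends of the FGF series, although the intervals of neighbors in the order of levels overlapped. The intervals of the Cdh11 ratios from 0.75 to 3 ng/ml (1.10 to 1.69) and from 3 to 12 ng/ml (1.05 to 1.55) did not include 1. The share of cells with Cdh11, given below, did not follow this order at 3 and 12 ng/ml, where its intervals overlapped.

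**Figure D1:**
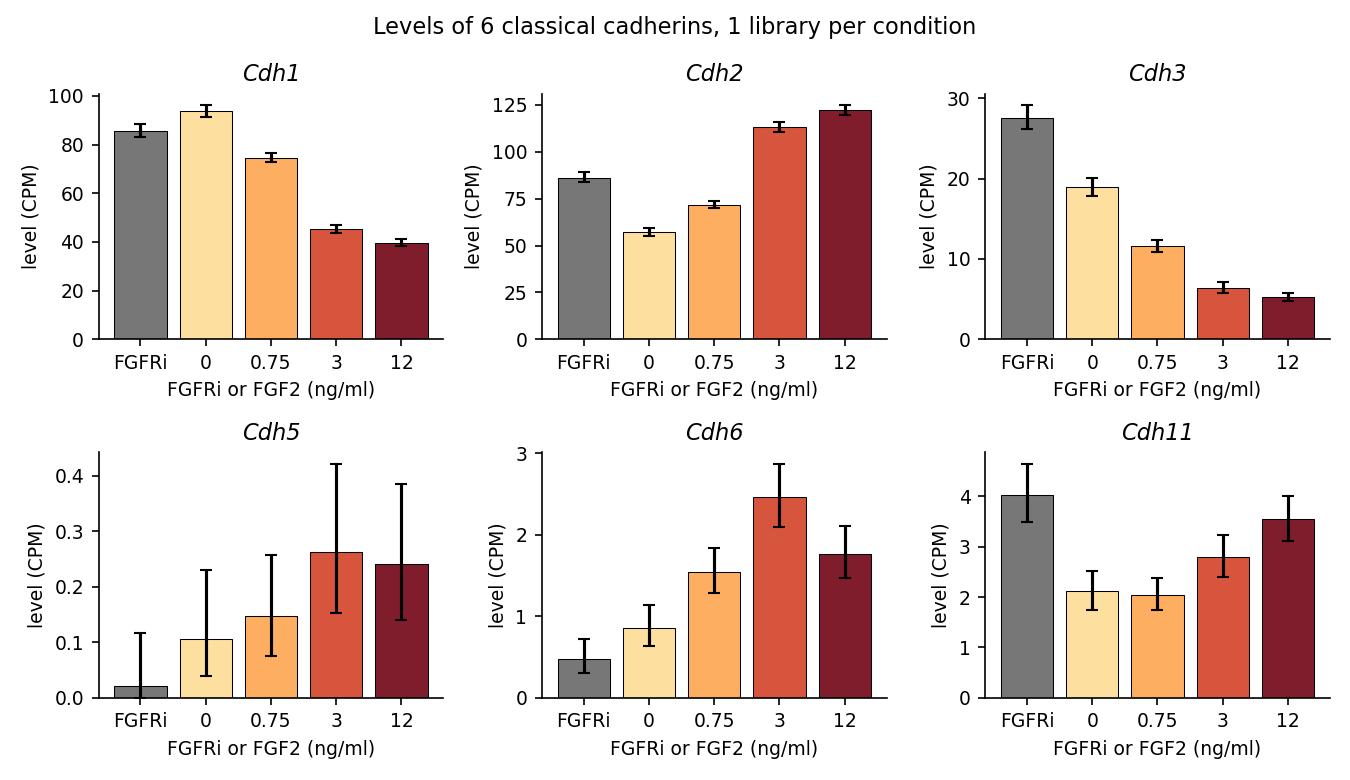
Level of each of the 6 cadherin genes (CPM, y axis, with its own range for each gene) in the FGFRi library and at 0, 0.75, 3 and 12 ng/ml FGF2 (x axis), 1 library per condition, with exact Poisson 95% intervals as error bars. Cdh1 and Cdh3 have lower bars at each higher dose, Cdh2 has higher ones, and the intervals of Cdh5 overlap between neighboring libraries.

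Between 0 and 12 ng/ml FGF2, Cdh1 fell by 1.24 on the log2 scale (interval of the log2 ratio -1.31 to -1.17), Cdh3 fell by 1.85 (-2.03 to -1.68) and Cdh2 rose by 1.10 (1.04 to 1.15). A gene was called different where it had at least 10 CPM in either library and its levels differed by a factor of at least 2. All 3 members with at least 10 CPM were called in this comparison, whereas 5.91% of the 8237 genes with this level were, 154 higher and 333 lower. As the 6 genes were chosen with results of these data known, this count is a description. The median log2 ratio of all these genes was 0.01. Cdh6 and Cdh11 were below 10 CPM, with log2 ratios of 1.03 (0.55 to 1.54) and 0.75 (0.43 to 1.07), and the interval for Cdh5 (-0.23 to 2.82) included 0. Most of the difference in Cdh1 and Cdh2 lay between 0.75 and 3 ng/ml, where the log2 ratios were -0.72 and 0.66. They were -0.33 and 0.33 from 0 to 0.75 ng/ml, and -0.19 and 0.11 from 3 to 12 ng/ml. Cdh3 had log2 ratios of -0.71, -0.85 and -0.29 over the same steps. No member was called in any of these 3 steps, in which 1.72%, 0.859% and 0.0883% of all genes with 10 CPM were.

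FGFRi-treated cells did not extend the dose series downward in the same way for all members. From FGFRi to 0 ng/ml FGF2 the log2 ratio was 0.13 for Cdh1 (0.07 to 0.19), -0.59 for Cdh2 (-0.66 to -0.53) and -0.54 for Cdh3 (-0.66 to -0.42). That of Cdh11 was -0.93 (-1.28 to -0.60) and that of Cdh6 0.84 (0.10 to 1.62). None of the members was called in this comparison, where 7.99% of 8445 genes were. From FGFRi to 12 ng/ml, Cdh1 fell by 1.11 and Cdh3 by 2.40 on the log2 scale and both were called, whereas Cdh2, with a log2 ratio of 0.50, was not, against 20.4% of 8650 genes called. All of these comparisons share libraries and are not independent of each other. Levels of mesenchymal genes differed along with them. Of 13 mesenchymal markers 11 had at least 10 CPM in either library, and all 11, among them Vim, Fn1 and Col1a1, were called lower at 0 ng/ml than with the FGFRi, and the median log2 ratio of these markers was -1.55. The summed level of all 13, none of which was at 0, was 6753 CPM with the FGFRi and 1949, 805, 729 and 982 CPM along the doses. Their part in the higher Cdh2 and Cdh11 of the FGFRi library was not tested.

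The summed level of the 6 genes varied little compared with its makeup. It was 204 CPM with the FGFRi and 173, 162, 170 and 173 CPM along the doses. Cdh1 UMIs made up 42.0% of the sum with the FGFRi, 54.2% without FGF2, 46.1% at 0.75 ng/ml, 26.6% with 3 ng/ml and 23.0% at 12 ng/ml. Cdh2 made up 42.3%, 33.1%, 44.4%, 66.4% and 70.8% in the same order, and Cdh3 13.5%, 11.0%, 7.16%, 3.77% and 3.03%.

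To compare cells at equal depth, 10000 UMIs were drawn from each cell, and the 9 to 39 cells per library with fewer UMIs were left out. A Cdh1 UMI was then found in 40.9% of 1662 FGFRi-treated cells (38.5 to 43.3) and in 48.5% of 1679 cells without FGF2 (46.1 to 51.0). The share was 39.5% of 2706 cells at 0.75 ng/ml, 26.0% of 2115 cells with 3 ng/ml and 22.5% of 2397 cells at 12 ng/ml (20.9 to 24.3). Without thinning, the shares for Cdh1 were 56.8%, 65.0%, 55.4%, 42.0% and 36.2%. A Cdh2 UMI was found in 41.9% of thinned FGFRi-treated cells and in 33.3%, 38.8%, 56.3% and 61.1% of cells along the doses (57.3%, 50.4%, 55.6%, 75.1% and 80.8% without thinning). The share of cells with Cdh3 was 22.4% with the FGFRi and 17.5%, 10.9%, 6.19% and 4.71% along the doses (44.4%, 36.5%, 24.3%, 15.2% and 12.8% without thinning).

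Levels of Cdh1 differed in the number of cells with a UMI and also in the UMIs of these cells. Thinned cells with Cdh1 held on average 2.02 Cdh1 UMIs with the FGFRi, and 1.93, 1.83, 1.70 and 1.60 along the doses. The share of all cells with at least 3 Cdh1 UMIs was 10.5% with the FGFRi, 11.7% without FGF2 and 2.80% at 12 ng/ml. For Cdh2 this share was 11.2% with the FGFRi, 6.67% without FGF2, 8.80% at 0.75 ng/ml, 16.1% with 3 ng/ml and 15.6% at 12 ng/ml. Cells with Cdh3 mostly held a lone UMI, with means between 1.10 and 1.22.

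Free RNA in droplets can give a UMI in a cell that does not express the gene. The share was therefore also taken in the cell cluster where each gene was lowest, among combinations of a cluster and a library with at least 100 thinned cells, from a clustering that left out the cadherin, catenin and EMT (epithelial-mesenchymal transition) genes. In a cluster led by Frzb, Pcdh19 and Tbx6 (cluster 0), Cdh1 was found in 21 of 1098 thinned cells at 12 ng/ml (1.91%), which had a median of 27205 UMIs per cell before thinning. In this cluster 2.19%, 2.81% and 2.82% had one at 0, 0.75 and 3 ng/ml. In a cluster led by Ascl2 and Esx1 (cluster 6), Cdh2 was found in 3 of 119 cells without FGF2 (2.52%), which had a median of 31848 UMIs. The shares of Cdh1 and Cdh2 over whole libraries were far above these values. At 12 ng/ml, however, the lowest share of Cdh2 was 12.8% of 148 cells, in cluster 4. The interval of that share was 7.91 to 19.3. It counts cells with Cdh2 whether or not they had Cdh1. It therefore cannot be set against the 8.26% of cells of this library that had both genes. In the FGFRi library only cluster 2 had at least 100 thinned cells, so that no such low value exists there. The part of free RNA in the cells with both genes was not tested. For Cdh3 the lowest share was 2.46% of 1098 cells (interval 1.63 to 3.56) in cluster 0 at 12 ng/ml. That whole library, which includes these cells, had 4.71% (3.90 to 5.64). The margin was smaller than for Cdh1 in the same cluster and library.

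At equal depth, most cells had transcripts of either Cdh1 or Cdh2, and fewer had both. At 0 ng/ml FGF2, 41.0% of thinned cells had Cdh1 only, 25.7% had Cdh2 only, 7.56% had both (interval 6.34 to 8.93) and 25.7% had neither. At 12 ng/ml, 14.3% had Cdh1 only, 52.8% had Cdh2 only, 8.26% had both (7.19 to 9.43) and 24.7% had neither. The library with 3 ng/ml was close to the latter, with 19.2%, 49.5%, 6.81% and 24.5% for Cdh1 only, Cdh2 only, both and neither. At 0.75 ng/ml, 34.1% of cells had Cdh1 only, 33.4% had Cdh2 only and 5.43% had both (4.61 to 6.35). FGFRi-treated cells were close to these, with 33.7% Cdh1 only, 34.7% Cdh2 only and 7.16% both (5.97 to 8.51). Thus the share of cells with both stayed between 5.43% and 8.26% while Cdh1-only cells ranged from 14.3% to 41.0%. Without thinning, both genes were found in 20.6% of FGFRi-treated cells and in 21.8%, 16.7%, 21.2% and 22.1% of cells along the doses. Neither gene was found in 24.4% to 27.1% of thinned cells, and in 4.05% to 6.41% of cells without thinning, so that most of these cells are ones in which the drawn UMIs missed both genes.

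**Figure D2:**
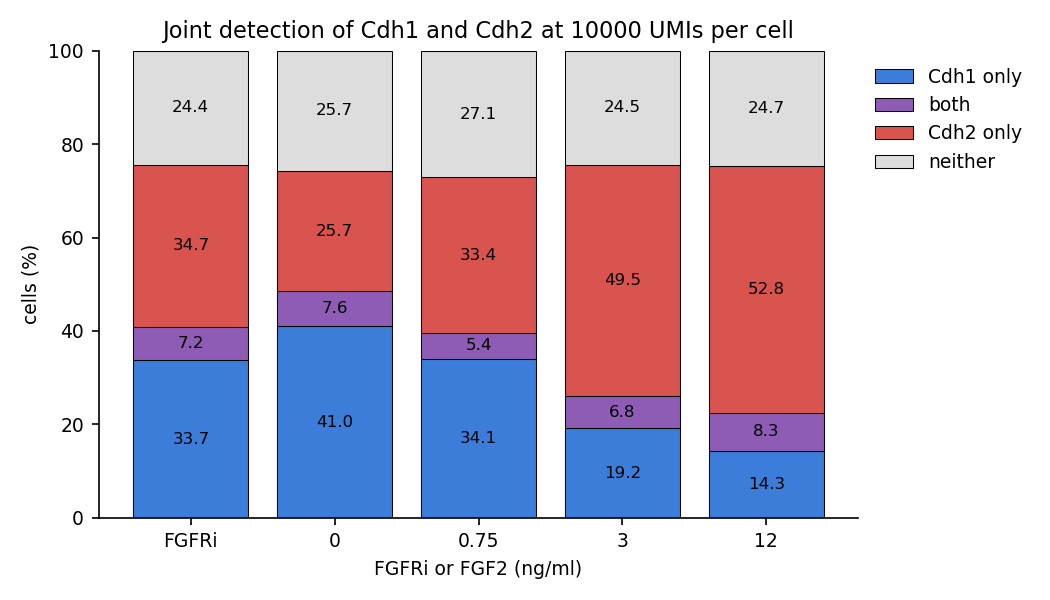
Share of cells (%, y axis) with Cdh1 only, both genes, Cdh2 only and neither gene after thinning to 10000 UMIs per cell, for the FGFRi library and 0, 0.75, 3 and 12 ng/ml FGF2 (x axis). The band of cells with both stays between 5.43% and 8.26%, while the Cdh1-only band is 41.0% without FGF2 and 14.3% at 12 ng/ml.

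Had the detection of both genes been independent within a library, the product of their shares would have given 17.1% of cells with both in the FGFRi library and 16.2%, 15.3%, 14.6% and 13.8% along the doses. The observed share was 0.419 times this product with the FGFRi (119 cells) and 0.468, 0.354, 0.465 and 0.600 times at 0, 0.75, 3 and 12 ng/ml (127, 147, 144 and 198 cells). The lowest ratio was thus at 0.75 ng/ml. The highest was at 12 ng/ml at this depth, but without FGF2 when 5000 UMIs were drawn or at least 2 UMIs of each gene were asked for. Among cells with Cdh1, the share that also had Cdh2 was 17.5% with the FGFRi, 15.6% without FGF2, 13.7% at 0.75 ng/ml, 26.2% with 3 ng/ml and 36.7% at 12 ng/ml. Cells with both had more UMIs before thinning than those with a single one of the genes, with medians of 27538 with the FGFRi and 35206, 31079, 29557.5 and 30034.5 along the doses. Medians of Cdh1-only cells were 25135, 28788, 27013, 27876 and 28397, and those of Cdh2-only cells 24226, 29506, 27441, 28753 and 27124.5. Droplets with 2 cells were not removed, and their part in the cells with both was not tested. Without the 5% of cells with the most UMIs in each library, the ratios were between 0.333 and 0.611.

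Within clusters of the FGF2 libraries the ratio was mostly higher than over whole libraries. In 18 combinations of a cluster and an FGF2 library with at least 10 cells expected to hold both, it was between 0.686 and 1.04 with a median of 0.828. In the FGFRi library, nearly all cells (1522 of 1701) were in cluster 2, led by Lce1h and Acta2, and 112 of 1491 thinned cells there had both genes where 261 were expected, a ratio of 0.430. This clustering hardly divided that library, whose ratio as a whole was 0.419. The value therefore cannot be set against those within clusters of the FGF2 libraries. The authors' own clustering placed most FGFRi-treated cells in more than a single cluster. Cells with both were most frequent in cluster 5, led by Sprr2a3, Psmb8 and Fst. They made up 16.8% of 232 cells of this cluster at 0.75 ng/ml, 19.9% of 387 cells with 3 ng/ml and 22.5% of 453 cells at 12 ng/ml, where the observed number (102) was the one expected (102). In this cluster 33.2% to 40.2% of cells had Cdh1 and 55.2% to 62.3% had Cdh2.

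Clusters ranged from mainly Cdh2 to mainly Cdh1. In cluster 0 between 78.8% and 84.5% of cells had Cdh2 in the 4 FGF2 libraries. In cluster 1, led by Epha5 and Zbtb16, 62.6% to 65.7% of cells had Cdh2, and the share with Cdh1 was 6.56% without FGF2 and 17.7% at 12 ng/ml. Cluster 3 (Ltb, Sfn) and cluster 4 (Dlx5, Trim29, Rab25) were at the other end. In cluster 3, Cdh1 was found in 50.8%, 64.0%, 63.4% and 63.4% of cells at 0, 0.75, 3 and 12 ng/ml, and Cdh2 in 32.6%, 16.2%, 14.9% and 21.5%. In cluster 4, Cdh1 was found in 74.6%, 69.0%, 65.6% and 60.8% of cells at 0, 0.75, 3 and 12 ng/ml, and Cdh2 in 4.37%, 7.37%, 6.62% and 12.8%. The share with Cdh1 was thus higher at 12 than at 0 ng/ml in clusters 1 and 3 and lower in cluster 4, while over whole libraries it was lower. As the clusters were made from the same cells, this is a description and was not tested.

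**Figure D3:**
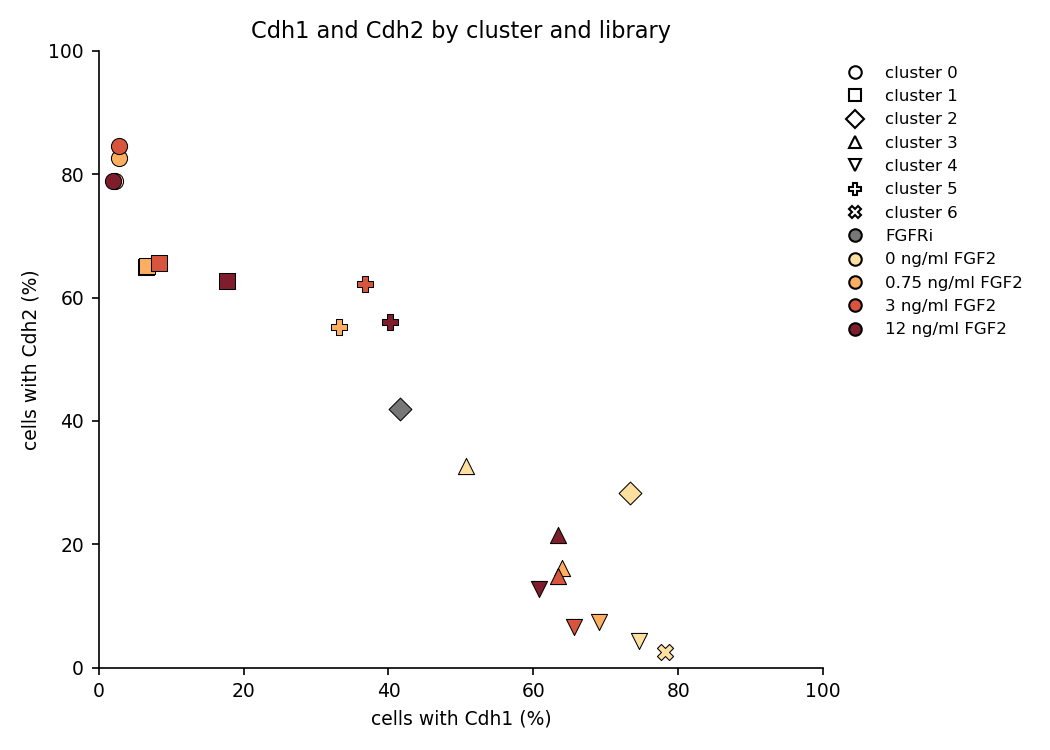
Share of thinned cells with Cdh1 (%, x axis) and with Cdh2 (%, y axis) for each combination of a cluster (symbol) and a library (color) with at least 100 thinned cells. Points run from cluster 0, with 1.91% to 2.82% Cdh1 and 78.8% to 84.5% Cdh2, to cluster 6 without FGF2, with 78.2% Cdh1 and 2.52% Cdh2.

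Cells with a UMI of T (Brachyury), the transcription factor of the primitive streak and nascent mesoderm, had Cdh2 more often than T-negative cells, and Cdh1 less often, at every FGF2 dose. At 0 ng/ml, 37 of 246 T-positive cells had Cdh1 (interval of the share 10.8 to 20.1), compared with 54.3% of 1433 T-negative cells (51.7 to 56.9). The shares were 19.3% and 49.6% at 0.75 ng/ml, 19.3% and 35.8% with 3 ng/ml, and 20.9% and 25.6% at 12 ng/ml, where the intervals overlapped (18.9 to 23.0 and 22.7 to 28.6). Cdh1 in T-positive cells therefore stayed at or below 20.9%, while in T-negative cells it was lower at each higher dose. For Cdh2, the shares in T-positive and T-negative cells were 61.4% and 28.5% without FGF2, 61.9% and 27.3% at 0.75 ng/ml, 66.5% and 41.5% with 3 ng/ml, and 66.3% and 51.6% at 12 ng/ml. Only 6 FGFRi-treated cells had a T UMI. Cells with both cadherins were less frequent among T-positive than T-negative cells without FGF2 (3.66% and 8.23%) and more frequent at 0.75 ng/ml (7.92% and 4.20%), 3 ng/ml (8.93% and 3.72%) and 12 ng/ml (10.5% and 4.24%).

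Tbx6, a transcription factor of paraxial mesoderm that acts after T, marked cells in which Cdh1 was rare at every FGF2 dose. At 12 ng/ml, 6.77% of 739 Tbx6-positive cells had Cdh1 and 77.8% had Cdh2, compared with 29.6% and 53.6% of 1658 Tbx6-negative cells. At 0 ng/ml, 3 of 69 Tbx6-positive cells had Cdh1 (4.35%, interval 0.906 to 12.2) and 85.5% had Cdh2. At 0.75 and 3 ng/ml the share of Tbx6-positive cells with Cdh1 was 10.2% and 7.23%, and that with Cdh2 78.5% and 79.0%. These shares with Cdh1 were above the 1.91% to 2.82% of cluster 0, apart from that without FGF2, whose interval includes them.

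The relation of Cdx2 and Hand1 to the cadherins was not alike in all libraries. Cdx2 encodes a caudal and trophectoderm transcription factor. Cdx2-positive cells had Cdh1 less often than Cdx2-negative cells with the FGFRi (26.8% of 71 and 41.5% of 1591) and without FGF2 (34.4% and 63.2%). The same held at 0.75 ng/ml (34.1% and 57.1%) and with 3 ng/ml (24.5% and 33.2%). At 12 ng/ml the intervals overlapped (21.8% and 24.7%). Cdh2 was found in 42.2% of Cdx2-positive and 24.0% of Cdx2-negative cells without FGF2, and in 60.9% and 61.8% at 12 ng/ml. Hand1 encodes a factor of lateral and extraembryonic mesoderm and of trophoblast. Hand1-positive cells had Cdh1 less often than Hand1-negative cells with the FGFRi (29.1% and 46.3%), with 3 ng/ml (17.5% and 27.7%) and at 12 ng/ml (14.9% and 24.0%), but more often without FGF2 (54.0%, interval 49.9 to 58.2, and 45.6%, interval 42.7 to 48.6). At 0.75 ng/ml the shares with Cdh1 were 35.8% and 40.5%, and their intervals overlapped (31.8 to 40.0 and 38.4 to 42.6). Cdh2 was found more often in Hand1-positive than in Hand1-negative cells with the FGFRi (54.1% and 36.2%) and at 0.75 ng/ml (46.6% and 36.9%). This was so also with 3 ng/ml (74.4% and 52.6%) and at 12 ng/ml (68.9% and 59.5%). Without FGF2 the shares were 32.0% and 34.0%, and their intervals overlapped.

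**Figure D4:**
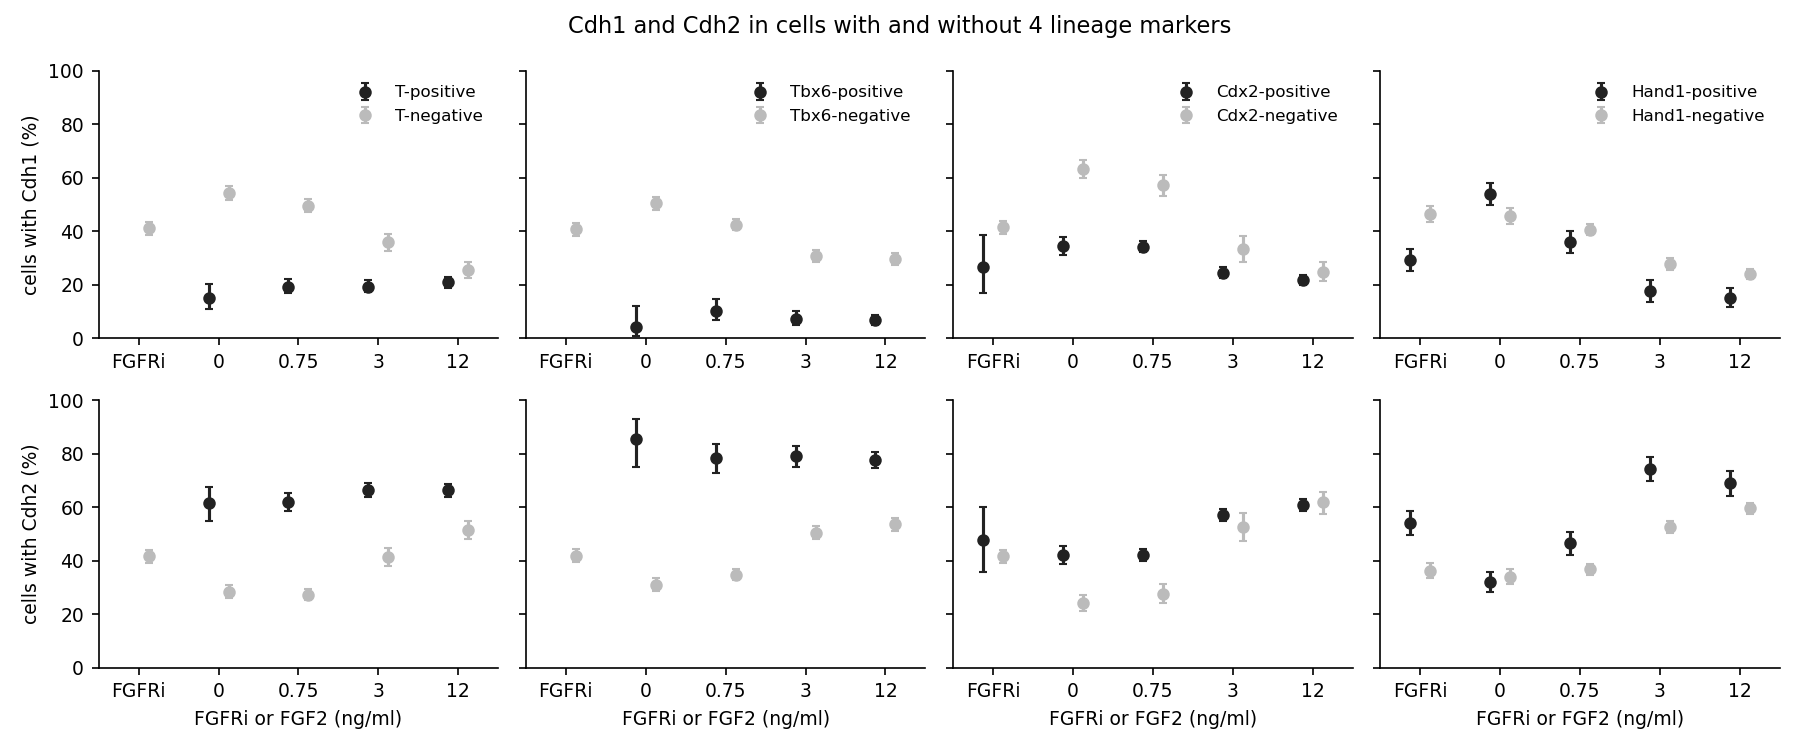
Share of cells with Cdh1 (%, top row) and with Cdh2 (%, bottom row) among cells positive (black) and negative (gray) for T, Tbx6, Cdx2 and Hand1, by library (x axis, FGFRi or ng/ml FGF2), with exact 95% intervals. Classes with fewer than 50 cells, which are T-positive and Tbx6-positive cells of the FGFRi library, are not drawn. Cdh1 is below and Cdh2 above in Tbx6-positive cells at every dose, whereas for Hand1 the order of Cdh1 differs without FGF2.

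To see what else set the cells apart, summed thinned counts of Cdh1-only and Cdh2-only cells were compared within each library by the same rule of size. In the FGFRi library 4.66% of 8503 genes were at least 2 times higher in Cdh1-only cells, and 3.61% in Cdh2-only cells. The shares higher in Cdh1-only cells were 7.37%, 6.91%, 5.84% and 6.02% at 0, 0.75, 3 and 12 ng/ml, and those higher in Cdh2-only cells were 3.77%, 3.35%, 2.47% and 2.86%. Of the 7472 genes with at least 10 CPM in a class in every library, 141 were higher in Cdh1-only cells of all 5 libraries and 30 in Cdh2-only cells of all 5. The classes were set by measured values, hence these differences are descriptions of the cells and were not tested.

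The epithelial markers were higher in Cdh1-only cells without exception. All of the 12 to 14 epithelial markers with at least 10 CPM were called higher there in each library, with median log2 ratios between 2.61 and 3.35, whereas the median of all genes was between -0.03 and 0.02 (log2 of CPM + 1). Epcam, an epithelial adhesion protein, was at 486 CPM in Cdh1-only and 71.1 CPM in Cdh2-only cells with the FGFRi, and at 585 and 81.7 CPM at 12 ng/ml. Its ratio between the classes was thus similar in the 5 libraries, from 5.97 to 7.16. Krt8, a keratin of simple epithelia, was 10.5 times higher in Cdh1-only cells with the FGFRi and 7.16, 13.5, 18.5 and 13.3 times higher along the doses. Its partner Krt18 was 6.05, 5.71, 11.1, 18.1 and 15.9 times higher in the same order. Among tight junction genes, Cldn6 was 5.15 to 15.5 times and Cldn7 14.9 to 55.0 times higher. Tjp3 was 10.5 to 29.6 times and the polarity gene Crb3 10.8 to 32.8 times higher. Rab25, a Rab GTPase of epithelial membrane traffic, was 32.0 to 66.9 times higher, and the protease and protease inhibitor genes St14, Spint1 and Spint2 were 2.65 to 7.24 times higher. Krt19 was 3.51 to 9.13 times higher. Markers of surface ectoderm were on the same side, with 5 of 8, 8 of 8, 7 of 8, 6 of 7 and 4 of 5 called higher in Cdh1-only cells from the FGFRi to 12 ng/ml, and of these Tfap2c (5 libraries) was 7.30 to 18.3 times higher. The list of extraembryonic ectoderm markers also includes Tfap2c and is given in the same order. Of these, 2 of 4, 3 of 5, 2 of 4, 2 of 4 and 1 of 3 were called higher in Cdh1-only cells. In Cdh2-only cells, its member Hand1 was called higher with the FGFRi and 3 ng/ml, and Cdx2 without FGF2. Epiblast markers were called higher in Cdh1-only cells with 3 ng/ml (2 of 3, Pou5f1 and Sox2) and 12 ng/ml (3 of 5, Pou5f1, Sox2 and Utf1). With the FGFRi 1 of 3 was called higher in each class. At 0 ng/ml 1 of 2 (Sox2) was higher in Cdh2-only cells, and at 0.75 ng/ml none was called.

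Regulators of epithelial identity followed the same division. The splicing regulators Esrp1 and Esrp2, which the list of epithelial transcription factors includes, and the transcription factors Grhl2, Grhl3 and Elf3 were called higher in Cdh1-only cells of all 5 libraries. Esrp1 was at 39.1 CPM in Cdh1-only and 2.25 CPM in Cdh2-only cells with the FGFRi, and at 60.5 and 7.74 CPM at 12 ng/ml. Esrp2 was 8.46 to 19.8 times, Grhl3 3.76 to 6.11 times and Elf3 4.55 to 10.8 times higher. Grhl2, an activator of epithelial junction genes, was 6.20 to 53.7 times higher, the largest value being without FGF2, where Cdh2-only cells had 0.463 CPM and the interval of the ratio was 14.6 to 447.

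Of the EMT transcription factors, several of which repress Cdh1, Zeb1 and Zeb2 were called higher in Cdh2-only cells in all 5 libraries. Zeb1 was at 7.50 and 48.7 CPM in Cdh1-only and Cdh2-only cells with the FGFRi. Its levels in these classes were 4.07 and 31.2 CPM without FGF2, 1.63 and 23.4 CPM at 0.75 ng/ml, 0.739 and 23.7 CPM with 3 ng/ml, and 3.80 and 22.9 CPM at 12 ng/ml. Zeb2 was 2.28 times higher in Cdh2-only cells with the FGFRi and 3.20 to 4.73 times higher with 0 to 12 ng/ml FGF2. Snai1 was below 10 CPM in both classes with the FGFRi and without FGF2, and was called higher in Cdh2-only cells at the other doses, where it was at 11.8, 20.2 and 32.3 CPM, compared with 3.36, 3.20 and 2.63 CPM in Cdh1-only cells. In total 6 of 7 EMT factors with 10 CPM were called higher in Cdh2-only cells with the FGFRi, 4 of 7 without FGF2, and 3 of 6 at each of the other doses. None was called higher in Cdh1-only cells.

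Mesenchymal markers did not divide in this way at all doses. With the FGFRi, 7 of 12 were called higher in Cdh2-only cells, among them Vim, Col1a1 and Postn, and none in Cdh1-only cells. At 0 ng/ml 1 of 9 was called higher in each class. At 0.75 ng/ml 4 of 8 (Col1a2, Sparc, Tagln and S100a6) were called higher in Cdh1-only cells and 1 (Vim) in Cdh2-only cells. With 3 ng/ml 3 of 9 were called higher in each class, and with 12 ng/ml 3 of 9 in Cdh1-only and 2 of 9 in Cdh2-only cells. Vim, which encodes the intermediate filament vimentin, was at 296 and 1860 CPM in Cdh1-only and Cdh2-only cells with the FGFRi, a ratio of 6.29. It was 2.61, 2.69, 2.16 and 1.87 times higher in Cdh2-only cells along the doses, so that it was not called at 12 ng/ml. At each FGF2 dose Vim was highest in the cells with both cadherins, with 768, 306, 373 and 335 CPM, compared with 404, 150, 156 and 188 CPM in Cdh2-only cells. Epcam in cells with both was between the other classes, at 237 CPM with the FGFRi and 322, 352, 285 and 320 CPM along the doses. T in cells with both was at 20.5, 192, 406 and 391 CPM along the doses, compared with 61.3, 131, 212 and 190 CPM in Cdh2-only cells and 8.43, 35.3, 134 and 189 CPM in Cdh1-only cells. Presomitic mesoderm markers were called higher in Cdh2-only cells, 5 of 5 at 0, 0.75 and 3 ng/ml and 6 of 6 at 12 ng/ml. Among these, Rspo3, which encodes a secreted Wnt potentiator, was called also with the FGFRi.

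**Figure D5:**
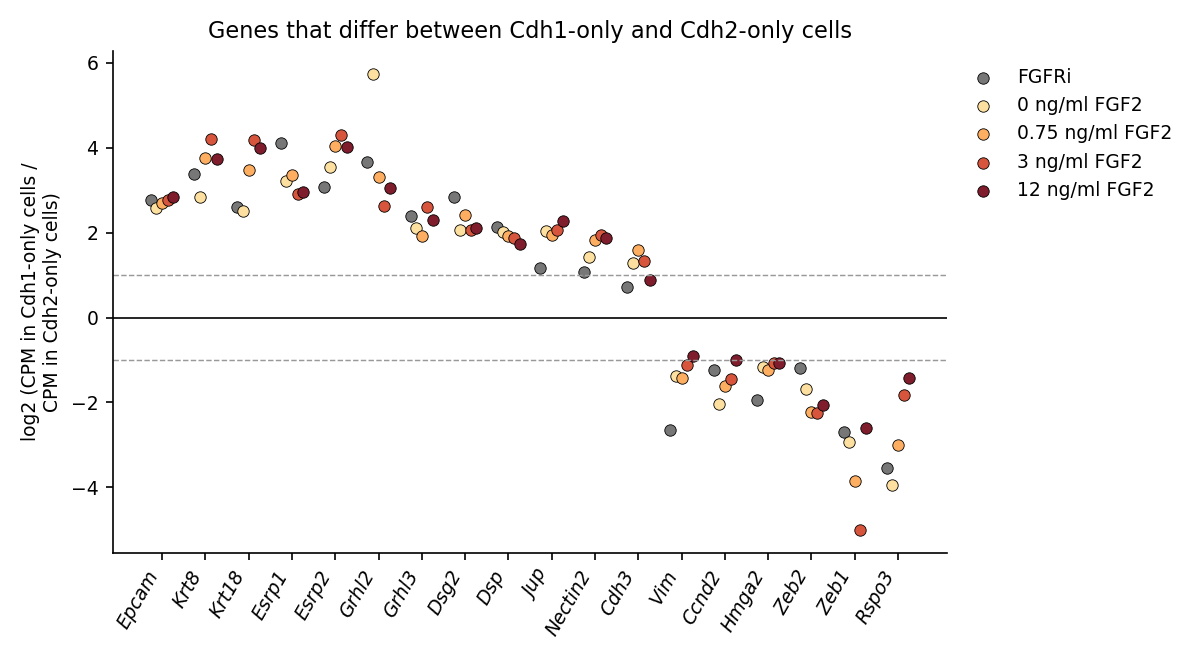
Log2 of the ratio of levels in Cdh1-only over Cdh2-only cells (y axis) for 18 genes (x axis) in the 5 libraries (color), with dashed lines at a factor of 2. Epcam lies between ratios of 5.97 and 7.16 in all libraries, Zeb1 and Zeb2 lie below the lower line in all, and Vim lies above the lower line at 12 ng/ml.

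The catenins and junction linkers had mostly lower levels at the higher doses, by less than a factor of 2. From 0 to 12 ng/ml none of the 15 with at least 10 CPM was called, which is near the 5.91% of all genes, and their median log2 ratio was -0.27. Ctnnb1 (β-catenin) had 275 CPM in the FGFRi library, then 250, 243, 229 and 217 CPM along the doses. Ctnna1 (α-catenin) was at 385, 311, 242, 194 and 198 CPM, and Ctnnd1 (p120-catenin) at 134, 98.0, 78.4, 65.1 and 63.6 CPM. Jup (plakoglobin), which also serves desmosomes, was at 94.5, 63.2, 50.2, 34.0 and 32.3 CPM, and the actin linker Vcl at 224, 112, 68.8, 52.9 and 56.2 CPM. With log2 ratios of -0.97 and -0.99 from 0 to 12 ng/ml, Jup and Vcl were just short of the factor of 2. Nectin2, an adhesion molecule that works beside cadherins, was at 85.1, 94.5, 77.5, 55.3 and 54.2 CPM, and Nectin1 at 10.4, 15.4, 18.5, 20.4 and 20.9 CPM. Nectin3 was at 39.0 to 63.4 CPM and the nectin linker Afdn at 93.6 to 113 CPM. Other genes of this list, Pkp4 (43.7 to 53.1 CPM), Arvcf (12.4 to 22.4), Ctnnbip1 (60.3 to 83.4), Cbll1 (35.3 to 40.0), Lima1 (22.3 to 54.3) and Plekha7 (19.7 to 24.0), were not called from 0 to 12 ng/ml either. From FGFRi to 12 ng/ml, 15 genes of the list had at least 10 CPM. Of these, Ctnnd1, Jup, Vcl and Lima1 were called lower and Nectin1 higher, in a comparison where 20.4% of all 8650 genes were called.

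Within libraries, 2 of these junction genes were called higher in Cdh1-only cells of all 5. Jup was 2.25 times higher with the FGFRi and 4.08, 3.84, 4.18 and 4.80 times higher along the doses. Nectin2 was 2.11, 2.69, 3.55, 3.85 and 3.65 times higher. No gene of the list was called higher in Cdh2-only cells, while in Cdh1-only cells 3 of 16 were called in the FGFRi library, 3 of 15 at 0 and 0.75 ng/ml, and 2 of 15 at 3 and 12 ng/ml. Desmosome genes were on the same side. Dsg2 and Dsc2, which encode desmosomal cadherins, and Dsp (desmoplakin) were called higher in Cdh1-only cells of all 5 libraries, by 4.17 to 7.18, 2.90 to 4.10 and 3.34 to 4.39 times. The delta protocadherins were divided. Pcdh1 was 2.95 to 7.48 times higher in Cdh1-only cells, and no other gene of this list was called higher there. In Cdh2-only cells, Pcdh7 and Pcdh18 were called higher with the FGFRi and Pcdh18 without FGF2. Pcdh18 and Pcdh19 were called higher in these cells at 0.75 and 12 ng/ml, and Pcdh19 with 3 ng/ml. The median log2 ratio of Cdh1-only over Cdh2-only cells for the list was between -1.04 and -0.29.

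None of 12 further classical cadherins reached 10 CPM in any library. Cdh4 was at 4.33 to 6.73 CPM, Cdh24 at 3.87 to 6.46 CPM and Cdh10 at 1.99 to 5.06 CPM, and all others were at or below 0.270 CPM. Nor did any of 9 cadherin-like genes outside the classical types. Of 10 delta protocadherins 4 reached this level in 0 or 12 ng/ml, and Pcdh19 was called higher at 12 ng/ml, from 2.96 to 17.0 CPM.

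Among the regulators, Snai1 alone of the 6 EMT transcription factors with 10 CPM was called from 0 to 12 ng/ml, where 5.91% of 8237 genes were. It had 4.24 CPM in the FGFRi library, then 4.95, 6.67, 14.0 and 22.9 CPM along the doses, a log2 ratio of 2.21. Zeb1 was lowest at 0.75 ng/ml (28.7, 15.5, 11.3, 15.3 and 18.1 CPM from the FGFRi to 12 ng/ml), as was Zeb2 (55.4, 29.8, 26.7, 35.4 and 41.7 CPM). Twist1, a mesenchymal regulator, was highest in the FGFRi library, with 84.9 CPM and 21.0, 15.3, 11.7 and 10.7 CPM along the doses, as were Prrx1 (77.8, 6.53, 2.98, 1.27 and 0.537 CPM) and Snai2 (13.9, 7.80, 4.15, 4.30 and 3.15 CPM). Of 7 EMT factors with 10 CPM, Twist1 and Prrx1 were called lower at 0 ng/ml than with the FGFRi, where 7.99% of 8445 genes were called. The E-proteins Tcf3 (73.4 to 97.8 CPM) and Tcf4 (145 to 191 CPM) were not called in these comparisons. Of the 5 epithelial regulators with 10 CPM, Grhl2 (14.9 and 7.35 CPM) and Esrp2 (12.9 and 4.73 CPM) were called lower with 12 ng/ml than without FGF2. Esrp1 was at 20.0, 35.6, 40.2, 29.6 and 21.3 CPM from the FGFRi to 12 ng/ml, Grhl3 at 9.12, 13.6, 19.8, 14.2 and 9.81 CPM, and Elf3 at 5.94, 11.7, 10.1, 9.44 and 7.87 CPM, and these 3 were not called. The median log2 ratio from 0 to 12 ng/ml was 0.15 for the EMT factors and -0.72 for the epithelial regulators.

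Cdh3 differed along the doses in the same direction as Cdh1, but from cell to cell the likeness seen between them was weak. The low counts of Cdh3 limit how close such a likeness can be. The share of cells with Cdh3 was 27.3% in Cdh1-only and 16.6% in Cdh2-only cells with the FGFRi. The pairs of shares were 20.6% and 9.26% without FGF2, 16.1% and 5.32% at 0.75 ng/ml, 9.61% and 4.39% with 3 ng/ml, and 5.85% and 3.24% at 12 ng/ml. In the same way, Cdh3 CPM was called higher in Cdh1-only cells at 0, 0.75 and 3 ng/ml, with ratios of 2.44, 2.99 and 2.52, but not with the FGFRi (1.66). In cells with neither gene Cdh3 was found in 24.4%, 20.4%, 11.5%, 6.76% and 6.94% from the FGFRi to 12 ng/ml, above its share in Cdh2-only cells. The share of Cdh3-positive cells was thus lower with 12 ng/ml than without FGF2 within each of these 3 classes. Cells with Cdh1 and Cdh3 were 1.17, 1.16, 1.40, 1.47 and 1.22 times as frequent as the product of the single shares, and cells with Cdh2 and Cdh3 were 0.775, 0.646, 0.549, 0.773 and 0.753 times as frequent. By cluster, Cdh3 was most frequent in cluster 2 without FGF2 (28.8% of 184 cells).

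Most cells with Cdh11 also had Cdh2. After thinning, a Cdh11 UMI was found in 51 cells of the FGFRi library (3.07%) and in 32, 45, 54 and 52 cells of the libraries with 0, 0.75, 3 and 12 ng/ml FGF2 (1.91%, 1.66%, 2.55% and 2.17%). Unlike the CPM, this share was lower at 12 than at 3 ng/ml in the draw made, but the intervals overlapped (1.62 to 2.84 and 1.92 to 3.32). Its intervals at 0 and 12 ng/ml overlapped (1.31 to 2.68 and 1.62 to 2.84). With 20000 UMIs drawn per cell the shares were further apart, at 3.38% without FGF2 and 5.07% at 12 ng/ml, in the direction of the CPM. Of the cells with Cdh11, 72.5% also had Cdh2 with the FGFRi, and 65.6%, 57.8%, 66.7% and 76.9% along the doses. Cells with Cdh2 and Cdh11 were 1.73, 1.97, 1.49, 1.18 and 1.26 times as frequent as the product of the single shares, so that at 3 and 12 ng/ml, where Cdh2 was found in 56.3% and 61.1% of all cells, there were 36 and 40 such cells where 30.4 and 31.8 were expected. Cdh11 was found in 0.179% of Cdh1-only and 5.37% of Cdh2-only cells with the FGFRi, in 0.291% and 4.63% without FGF2, in 0.433% and 2.55% at 0.75 ng/ml, in 1.72% and 3.06% with 3 ng/ml, and in 0.585% and 2.76% at 12 ng/ml. By cluster, it was found in none of 119 cells of cluster 6 without FGF2, which allows a share of up to 2.52%, and in 5.25% of 305 cells of cluster 1 in the same library.

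At 0.75, 3 and 12 ng/ml FGF2, Cdh6 was most frequent in cluster 5. A UMI was found in 7 FGFRi-treated cells and in 14, 38, 60 and 47 cells along the doses (0.421%, 0.834%, 1.40%, 2.84% and 1.96%). All 7 FGFRi-treated cells had Cdh2 and no Cdh1. In cluster 5, 6.47% of 232 cells at 0.75 ng/ml, 6.72% of 387 cells with 3 ng/ml and 5.96% of 453 cells at 12 ng/ml held Cdh6. In cluster 1 the shares were 2.17%, 2.98% and 2.60%. The intervals of clusters 5 and 1 overlapped with 3 ng/ml (4.44 to 9.69 and 1.80 to 4.61) and at 12 ng/ml (3.96 to 8.55 and 1.31 to 4.61). In cluster 4, 2 of 719 cells did at 0.75 ng/ml, none of 302 with 3 ng/ml (limit 0.993%) and none of 148 at 12 ng/ml (limit 2.03%). Without FGF2, none of 389 cells of cluster 4 did, which allows a share of up to 0.771%. In that library 2.95% of 305 cells of cluster 1 did, and cluster 5 had only 15 cells. T-positive cells had Cdh6 more often than T-negative cells, with 3.46% and 0.387% at 0.75 ng/ml, 4.15% and 0.929% with 3 ng/ml and 2.78% and 0.471% at 12 ng/ml. Without FGF2 the shares were 2.03% and 0.628%, and their intervals overlapped (0.663 to 4.68 and 0.288 to 1.19).

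Cdh5 was found in few cells, and the 14 endothelial markers summed to no more than 29.8 CPM in any library. A thinned UMI was found in 0 of 1662 FGFRi-treated cells, which allows a share of up to 0.181%, in 0 of 1679 cells without FGF2, which allows up to 0.179%, and in 4, 6 and 4 cells at 0.75, 3 and 12 ng/ml. Without thinning, 1, 6, 9, 17 and 15 cells had one from the FGFRi to 12 ng/ml. Of these, 2 cells with 3 ng/ml had the endothelial gene Pecam1 and 1 had Kdr, and 1 cell at 12 ng/ml had Tek or Tie1. The median number of the 14 endothelial markers found was 1 in Cdh5-positive cells and 0 in other cells at 3 and 12 ng/ml, 0 and 1 without FGF2, and 0 in both in the other libraries. Of these markers only Egfl7 reached 10 CPM (12.9 to 20.8 CPM), Pecam1 was at 0.311 to 3.91 CPM, and no UMI of Emcn was counted.

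Over the cells of a library, the genes with the pattern most like that of Cdh1 were Krt8, Krt18 and Epcam, with mean Pearson correlations of log(1 + thinned count) over the 5 libraries of 0.52 (0.49 to 0.55 in the single libraries), 0.52 (0.48 to 0.57) and 0.50 (0.48 to 0.52), among 8511 genes found in at least 10% of cells of any library. For Cdh2 they were Rspo3 with 0.34 (0.23 to 0.44), the cyclin gene Ccnd2 with 0.31 and the chromatin gene Hmga2 with 0.30. Epcam was the gene most opposed to Cdh2 (-0.47). Between Cdh1 and Cdh2 the mean was -0.35 (-0.40 to -0.28). For Cdh3 the most alike were the glucose transporter gene Slc2a3, Wnt6 and Tfap2a, with means of 0.16, 0.13 and 0.12, and the mean with Cdh1 was 0.07. All values for Cdh3 were weak, and its low counts, found in at most 22.4% of thinned cells of a library, limit them. Among the values for Cdh3, that with Cdh2 (-0.10) was the third most negative. Cells of a library share its depth and its composition, and these values describe likeness among cells with no test.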

How the data were processed

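The authors deposited unnormalized UMI counts for each gene in each barcode (10x Genomics 3' v3.1), aligned to mm10 with the 10x annotation (GENCODE vM23/Ensembl 98). The matrix headers name Cell Ranger 5.0.1, the methods an earlier version. Doublets were not removed, as in the methods. Filters on cells, the Leiden clustering (resolution 0.33, 50 principal components, 15 neighbors, seed 0) and its scaling to 50000 counts per cell followed the methods or defaults. Clustering left out 42 listed genes of 2629 variable ones. It gave 7 clusters, whose number and numbering differ from those of the authors. Positions came from GENCODE vM21, in which 32158 of 32285 identifiers were matched. Counts were summed per library or class of cells, or thinned to 10000 UMIs per cell. List medians used log2(CPM + 1).

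The members and gene lists were chosen with earlier results of these data known. Genes named were the members, genes of the classical cadherin, catenin, EMT and epithelial lists at 10 CPM, Epcam, Vim, marker genes called between Cdh1-only and Cdh2-only cells of all libraries, and the 3 genes most correlated with Cdh1, Cdh2 and Cdh3. Further genes were named after their values were seen. The rule of size with its ratio intervals and the thinning were tested on simulated data, and the other steps were not. From 0 to 12 ng/ml, 200 of 200 genes changed 3-fold among 7972 were recovered and 0 others called. These simulated counts held counting error only, with no spread between cells or cultures. Recovery of 3-fold changes by a rule with a factor of 2 was thus near certain, and it checks the calculation only.

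Alternatives were other filters on cells, cell weights, TMM factors, thinning depths, limits for a positive cell and thresholds. Tools were Python 3.11.15, Scanpy 1.11.5, leidenalg 0.10.2, scikit-learn 1.9.0, NumPy 2.4.6, SciPy 1.17.1, pandas 2.3.3, Matplotlib 3.10.9, R 4.3.3 and edgeR 4.0.16 (TMM only). Authors' own comparisons were not part of the files.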

Additional observations from a re-analysis of the deposited data

Results flagged for a closer look

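The direction of 2 contrasts within libraries differed between conditions, in that shares of marker-positive and marker-negative cells had intervals apart in opposite directions. Each condition had 1 library, and the difference between conditions was not tested. The share of cells with both Cdh1 and Cdh2 in T-positive minus that in T-negative cells was -4.58 percentage points at 0 ng/ml FGF2, and 3.73, 5.21 and 6.22 points at 0.75, 3 and 12 ng/ml. The share of cells with Cdh1 in Hand1-positive minus that in Hand1-negative cells was 8.42 points at 0 ng/ml, compared with -17.1 points with the FGFRi, -10.2 points at 3 ng/ml and -9.09 points at 12 ng/ml. At 0.75 ng/ml the intervals of these shares overlapped (35.8% and 40.5%).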

How the results depend on the processing

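Of 164 comparisons with an alternative setting, 111 stayed within the limits of counting error or of 1.5 times the main count, 52 moved and 1 reversed. Removing the 5% of cells with the most UMIs, TMM factors, all deposited barcodes and the exact expectation over draws moved none of them. With every cell weighted equally, the log2 ratio of Cdh1 from 0 to 12 ng/ml was -1.31, and that of Cdh11 from FGFRi to 0 ng/ml was -1.29. With at most 5% mitochondrial UMIs the log2 ratios from FGFRi to 0 ng/ml were 0.21 for Cdh1 and -0.70 for Cdh2. Shares depend on the depth and on the UMIs asked for, by construction. From 0 to 12 ng/ml the share with Cdh1 differed by -26.0 percentage points, by -17.5 points at 5000 UMIs per cell and by -15.6 points with at least 2 UMIs; that with Cdh2 by 27.8, 18.7 and 17.6 points; and that with Cdh3 by -12.7, -5.93 and -2.70 points, and by -19.9 points at 20000 UMIs. For Cdh11 and Cdh6 the differences of 0.263 and 1.13 points moved to 1.70 and 2.23 points at 20000 UMIs. With at least 2 UMIs, that of Cdh6 reversed to -0.0357 points. Very few cells entered that value, namely 14.3% of the 14 cells with Cdh6 at 0 ng/ml and 4.26% of the 47 at 12 ng/ml. The cause was not tested. From the FGFRi to 12 ng/ml, cells with both Cdh1 and Cdh2 were 2.65%, 3.13%, 1.87%, 2.82% and 2.58% at 5000 UMIs, 17.1%, 15.1%, 11.7%, 15.9% and 16.7% at 20000 UMIs and 0.722%, 1.01%, 0.443%, 0.898% and 0.793% with at least 2 UMIs of each. Their ratio to the product of single shares moved to 0.311, 0.272 and 0.470 (FGFRi, 0.75 and 12 ng/ml) at 5000 UMIs, to 0.575, 0.566, 0.454 and 0.603 (FGFRi, 0, 0.75 and 3 ng/ml) at 20000 UMIs and to 0.137, 0.276, 0.120, 0.258 and 0.269 with at least 2 UMIs, and was below 1 throughout. The highest of these ratios moved from 12 ng/ml to 0 ng/ml at 5000 UMIs (0.472) and with at least 2 UMIs. Genes called from FGFRi to 0, 0 to 0.75, 0.75 to 3, 3 to 12, 0 to 12 ng/ml and FGFRi to 12 ng/ml numbered 675, 140, 69, 7, 487 and 1763; with at least 50 CPM they were 212, 46, 13, 0, 130 and 666, and with a ratio of 1.5 they were 1845, 438, 262, 75, 1067 and 3444. At a ratio of 1.5, Cdh2 was also called from FGFRi to 0 ng/ml, Cdh3 from 0 to 0.75 ng/ml, and Cdh1, Cdh2 and Cdh3 from 0.75 to 3 ng/ml. With at least 50 CPM, Cdh3 was no longer called from 0 to 12 ng/ml or from FGFRi to 12 ng/ml. Depth limits what can be said of Cdh5, Cdh6 and Cdh11. No paired analysis was possible because each condition has 1 library and the labels give no replicate numbers.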
